A study of Mus musculus with 4 samples.

Results

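The 10 genes described here are *Lin28a*, *Lin28b*, *Hmga1*, *Hmga2*, *Igf2bp1*, *Igf2bp2*, *Igf2bp3*, *Trim71*, *Mycn* and *Myc*, members of the LIN28 and let-7 timing pathway and of gene families tied to it. They were chosen by symbol, and every probe that the array lists under one of these symbols was read. All 10 were on the array, among 29924 gene names, and they were covered by 16 probes. All 16 probes passed the filter on dim signals.

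Total RNA of whole mouse cochlear ducts at embryonic stage E14.5 (strain NMRI) was hybridised to 4 two-colour Agilent arrays. By the methods, the spiral ganglion had been removed from these ducts. An array carried 1 mutant and 1 control pool of the same sex, and each sex had 2 arrays. Mutant pools carried *Sox2(creERT2);Tbx2(fl/fl)* and are called *Sox2-Tbx2LOF*, and control pools are labelled *Tbx2(fl/n.d.)*, which the methods describe as cre-negative. Dams of both groups received 4 mg tamoxifen orally at E12.5. The recombinase is made only where *Sox2* is active, which in the duct includes the prosensory progenitors of hair and supporting cells, so any change in those cells was measured among the RNA of all other duct cells. In such bulk samples fewer cells of a type and less RNA per cell cannot be told apart. Within each sex the mutant was labelled with Cy5 on 1 array (arrays 1 and 3) and with Cy3 on the other (arrays 2 and 4). Arrays 1 and 2 were female, and arrays 3 and 4 male.

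Between 69.2% and 72.0% of gene probes were well above background in either dye, and no spot was saturated. As a check of the labels, *Esr1*, whose ligand-binding domain is part of creERT2, was well above background in 4 of 4 mutant and 0 of 4 control pools. The mean log2 ratio (mutant to control) of *Tbx2* itself was -0.12 ± 0.098 (SD, n = 4), and it lay below 0 on 4 of 4 arrays, with an adjusted p of 0.124, and where its probe lies relative to the deleted part was not determined here. *Sox2* had a log2 ratio of 0.012 (adjusted p = 0.935). Of the markers of the duct epithelium, 12 of 12 were well above background in all pools. Among the markers of other cell types, 8 of 11 tested neuronal genes and 4 of 8 Schwann cell precursor genes were lower in the mutant pools, and 1 gene of each list was higher, while 0 of 6 melanocyte, 0 of 10 erythroid and 0 of 6 macrophage genes passed limma's test (2, 4 and 0 of them at an unadjusted p below 0.05). Of the mesenchymal markers 1 of 11 was higher, of the endothelial ones 1 of 6, and of the duct epithelium 1 of 12 was higher and 4 were lower. *Elavl3* had the lowest neuronal log2 ratio, -1.08, and *Foxd3* the lowest of the Schwann cell precursor list, -1.17. The summed signals of the 2 genotypes overlapped for 7 of the 8 marker lists, from 57200 to 62300 in mutant and from 58900 to 61200 in control pools for neurons, and from 172000 to 199000 and from 177000 to 206000 for Schwann cell precursors. The mesenchymal list was the exception, with summed signals from 393000 to 410000 in mutant and from 348000 to 379000 in control pools, so that every mutant pool lay above every control pool. The sums were taken on the linear scale, where the brightest genes of a list weigh most, so they do not measure cell numbers. The part of these cell types in the results on the timing genes was not tested.

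LIN28A and LIN28B are RNA-binding proteins that block the maturation of let-7 microRNAs in early progenitors. As development proceeds LIN28 falls and let-7 rises, and let-7 represses a set of growth genes that includes *Hmga2*, *Igf2bp1*, *Igf2bp2*, *Igf2bp3*, *Trim71*, *Mycn*, *Myc* and the *Lin28* genes themselves. In the mammalian cochlea LIN28B and let-7 are known as opposing regulators of when prosensory progenitors leave the cell cycle and differentiate. let-7 finds its targets through its seed, bases 2 to 8 of the mature microRNA, which pair with a complementary stretch of the target. The RefSeq table used here (GRCm38.p6) holds 11 mature mouse microRNAs with the same seed. The following 4 are shown to make the shared element visible, with the seed in capitals and written 5′ to 3′.

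mmu-let-7a-5p: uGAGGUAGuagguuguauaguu

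mmu-let-7b-5p: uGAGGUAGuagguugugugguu

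mmu-let-7g-5p: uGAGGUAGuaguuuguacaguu

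mmu-miR-98-5p: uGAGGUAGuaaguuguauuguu

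The sequence complementary to this seed, CTACCTC, was searched for on the sense strand of every probe. It was present in 150 of 39429 gene probes (0.38%) and in 1 of the 16 probes of the timing genes, the brighter of the 2 *Hmga2* probes. The stretch of 24 bases around it lies on the minus strand at chr10:119798744-119798767 (mm9, the build given in the array files) and is printed with the seed match in capitals. A match of these letters is a description of the measured target, not evidence of binding, and mature microRNAs were not measured on the array.

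Hmga2 probe 1, bases around the match: tcaaaacacactaCTACCTCttaa

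None of the 10 genes passed the test for a difference between *Sox2-Tbx2LOF* and control ducts at E14.5. In limma's test of the log2 ratios, with a term for dye, 0 of 10 had an adjusted p below 0.05, beside 5.18% of all 21042 tested genes (2.26% higher and 2.92% lower in the mutant). With a fold change of at least 1.5 in addition, the share over all genes was 0.442%. Without adjustment 1 of the 10, *Myc*, had a p below 0.05, beside 20.2% of all genes. Probe by probe, 0 of 16 passed, beside 3.99% of 27963 tested probes, and the lowest adjusted p was 0.0962. The median size of the log2 change was 0.0447 for the 10 genes and 0.0434 for all tested genes. Mutant and control pools overlapped in level at each of the 16 probes. The share over all tested probes was not computed, and the overlap does not take the pairing within arrays into account.

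**Figure D1:**
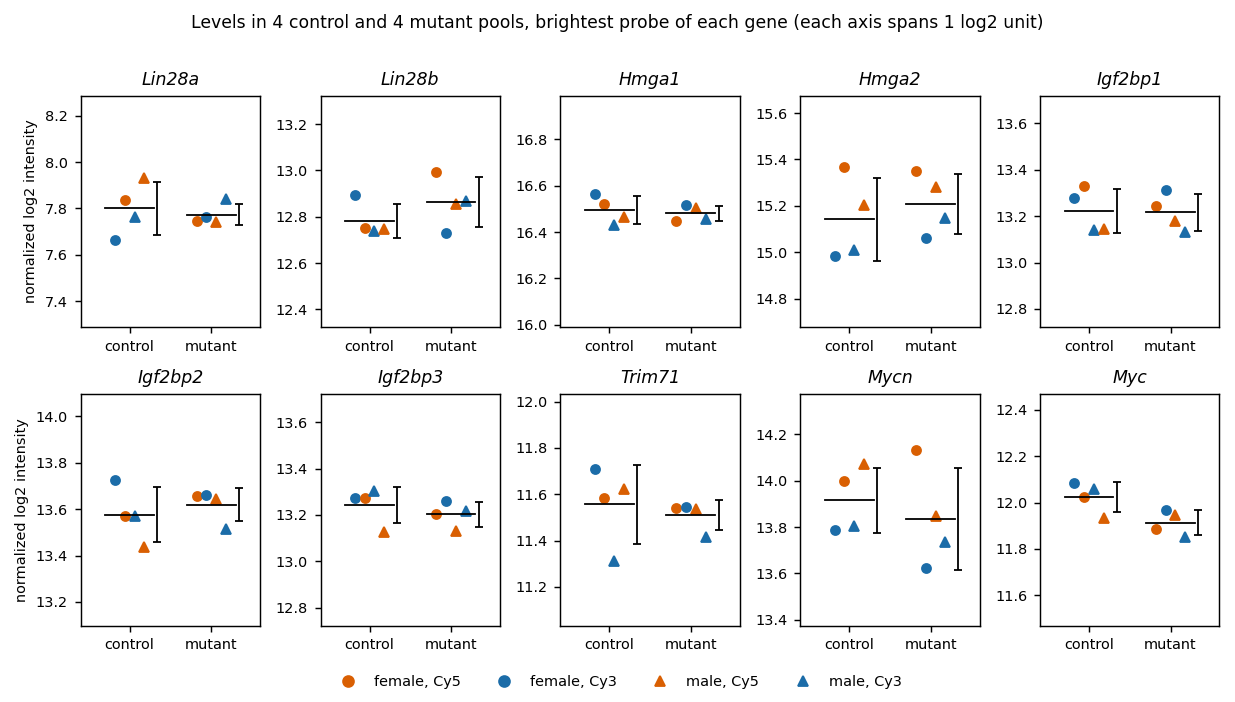
Normalized log2 intensity (y axis) of the brightest probe of each timing gene in 4 control and 4 mutant pools, with symbols for sex, colours for dye, a line for the mean and a bar for 1 SD. Control and mutant pools overlap in every panel, and Hmga2 and Mycn stand higher in Cy5 (orange) than in Cy3 (blue) pools of either genotype. Each axis spans 1 log2 unit, and heights cannot be compared between genes.

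*Lin28a* and *Lin28b* encode the let-7 blocking proteins. *Lin28a* (1 probe, chr4:133559245-133559304, mm9, minus strand) stood at normalized log2 intensities of 7.75, 7.76, 7.74 and 7.84 in the mutant pools of arrays 1 to 4 and at 7.67, 7.84, 7.77 and 7.93 in the control pools. The mutant pools lay inside the range of the control pools. Its mean log2 ratio was -0.026 ± 0.078 (SD, n = 4; adjusted p = 0.745).

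*Lin28b* was read by 2 probes. At the brighter one (chr10:45096468-45096527, minus strand) mutant pools had log2 intensities of 12.99, 12.73, 12.86 and 12.87 and control pools of 12.89, 12.75, 12.74 and 12.75. The mutant pool was the higher of the pair on 3 of 4 arrays, all but array 2, by 0.10 to 0.12 on the log2 scale, and the single exception was -0.022. The mean log2 ratio was 0.080 ± 0.068 (SD, n = 4), with an unadjusted p of 0.0705 and an adjusted p of 0.293 in limma's test. At the dimmer probe (chr10:45140412-45140471, minus strand) the log2 ratios ran from -0.12 to 0.33 with a mean of 0.063. There both female arrays were below 0 and both male arrays above it, which was not so at the brighter probe, where both sexes had positive means, 0.040 in female and 0.12 in male arrays.

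The HMGA proteins are small AT-hook proteins that bend DNA and open chromatin in proliferating embryonic cells. *Hmga1* was read by 3 probes. The brightest (chr17:27700543-27700602, plus strand) gave log2 intensities of 16.45, 16.52, 16.50 and 16.46 in mutant and of 16.57, 16.52, 16.43 and 16.46 in control pools, which interleaved. Its log2 ratio was -0.015 ± 0.077 (SD, n = 4; adjusted p = 0.886), and the other probes had means of -0.056 and -0.0081. The accessions of the first and the second probe also belong to *Hmga1b*, a near-identical gene, so the signal of both cannot be told apart there.

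*Hmga2*, the classic let-7 target with several seed matches in its transcript, was read by 2 probes that did not behave alike. At the brighter one, which holds the match printed above (chr10:119798739-119798798, minus strand), mutant pools stood at 15.35, 15.06, 15.28 and 15.15 and control pools at 14.98, 15.37, 15.01 and 15.20. The log2 ratios alternated with the dye: 0.37 and 0.27 where the mutant was Cy5, -0.31 and -0.056 where it was Cy3. The genotype mean was 0.069 ± 0.31 (SD, n = 4; adjusted p = 0.486), and the dye term was 0.25.

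At the second *Hmga2* probe (chr10:119800621-119800680, minus strand) the mutant pools had log2 intensities of 12.21, 12.18, 12.08 and 12.13 and the control pools of 12.07, 12.10, 11.96 and 11.89. The mutant pool was the higher one on 4 of 4 arrays, by 0.14, 0.082, 0.12 and 0.24, in both sexes and both dye orientations, although the 2 sets of pools overlapped. The mean of 0.15 ± 0.067 (SD, n = 4; 95% interval 0.054 to 0.24) was the largest of the 16 probes in size and had an unadjusted p of 0.00688, but its adjusted p of 0.0962 over all probes missed the threshold. The dimmer probe alone thus showed *Hmga2* higher on every array, and neither probe passed.

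The IGF2BP proteins bind and stabilise fetal mRNAs such as those of *Igf2* and *Myc*. *Igf2bp1* (1 probe, chr11:95824526-95824585, minus strand) stood at 13.24, 13.31, 13.18 and 13.13 in mutant and at 13.28, 13.33, 13.14 and 13.15 in control pools, and its log2 ratio of -0.0066 ± 0.030 (SD, n = 4; adjusted p = 0.942) was the smallest in size of the 10 genes. *Igf2bp2* at its brighter probe (chr16:22059260-22059319, minus strand) had 13.66, 13.66, 13.64 and 13.51 in mutant and 13.73, 13.57, 13.57 and 13.44 in control pools, a log2 ratio of 0.042 ± 0.074 (adjusted p = 0.607). The mutant pool was higher on 3 of 4 arrays at both *Igf2bp2* probes, but array 1 was the exception at the brighter and array 2 at the dimmer probe (mean 0.063). *Igf2bp3* (1 probe, chr6:49035710-49035769, minus strand) had 13.20, 13.26, 13.13 and 13.22 in mutant and 13.27, 13.27, 13.30 and 13.13 in control pools, with a log2 ratio of -0.041 ± 0.11 (adjusted p = 0.617). The signs of the mean ratios differed within the family.

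*Trim71* encodes the mouse form of LIN-41, an RNA repressor and ubiquitin ligase of early progenitors. At its brighter probe (chr9:114420415-114420474, minus strand) mutant pools stood at 11.54, 11.55, 11.54 and 11.41 and control pools at 11.71, 11.58, 11.31 and 11.62. Log2 ratios ranged from -0.21 on array 4 to 0.22 on array 3, with a mean of -0.048 ± 0.20 (SD, n = 4; adjusted p = 0.742). The dimmer probe was well above background in 4 of 4 mutant and 3 of 4 control pools and had a mean of -0.014.

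**Figure D2:**
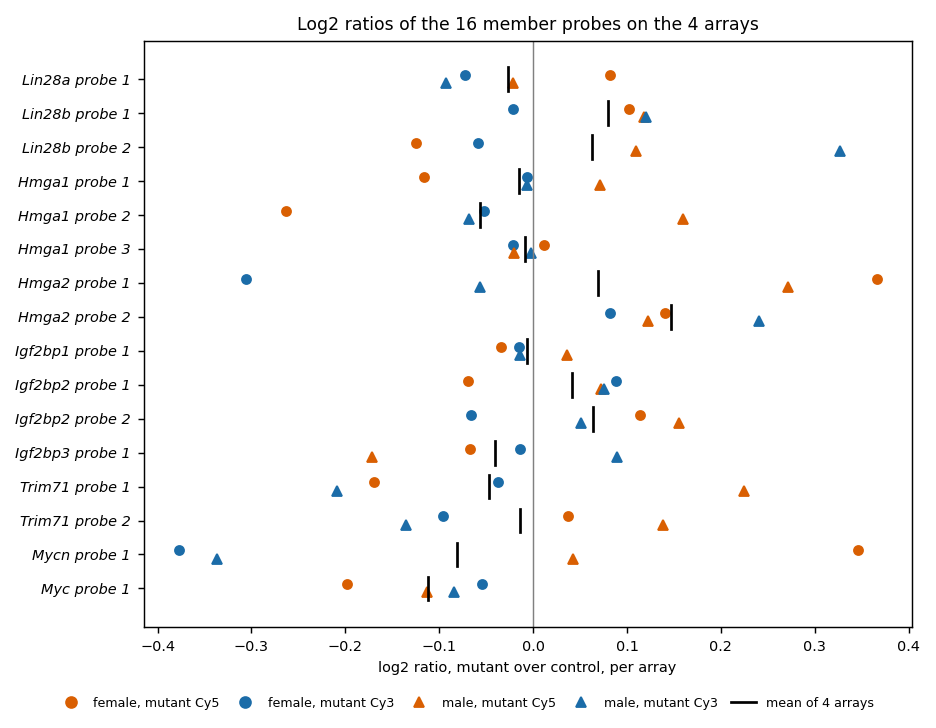
Log2 ratio of mutant over control (x axis) on each of the 4 arrays for the 16 probes (y axis; probe 1 is the brightest of its gene), with circles for female and triangles for male arrays, orange where the mutant was Cy5 and blue where it was Cy3, and a black bar for the mean. Ratios of Hmga2 probe 1 and of Mycn part by dye, those of Hmga2 probe 2 all lie above 0 and those of Myc all below 0.

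*Mycn* and *Myc* encode related transcription factors that drive growth and cell division, and *Mycn* is needed for the growth of the otic epithelium. *Mycn* (1 probe, chr12:12943193-12943252, minus strand) stood at 14.13, 13.62, 13.85 and 13.73 in mutant and at 13.79, 14.00, 13.80 and 14.07 in control pools. As at the brighter *Hmga2* probe, the log2 ratio followed the dye, with 0.35 and 0.043 where the mutant was Cy5 and -0.38 and -0.34 where it was Cy3. The genotype mean was -0.081 ± 0.34 (SD, n = 4; adjusted p = 0.438) and the dye term 0.28. A larger dye term was found in 1.92% of all genes for *Mycn* and in 2.56% for *Hmga2*.

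*Myc* was the one gene of the 10 whose brightest probe had the same sign on all 4 arrays. The probe (chr15:61821417-61821476, plus strand) gave log2 intensities of 11.89, 11.97, 11.95 and 11.85 in mutant and of 12.08, 12.02, 12.06 and 11.94 in control pools. The mutant pool was the lower of the pair on 4 of 4 arrays, by 0.055 to 0.20 on the log2 scale, with means of -0.13 in female and -0.099 in male arrays, and only the lowest control pool fell inside the range of the mutant pools. The mean log2 ratio of -0.11 ± 0.062 (SD, n = 4; SE 0.035) had an unadjusted p of 0.0136 and an adjusted p of 0.124 in limma's test. It thus missed the threshold over all genes tested. In simulated ratios, with 20842 of 21042 genes left unchanged, 0 of 50 genes with a true log2 change of 0.15 passed. With a true log2 change of -0.3, 26 of 50 passed. In the measured ratios 1091 genes passed, far more than in the simulated ones, and the adjustment of p depends on that number. The simulated counts thus do not give the chance of calling a change of the size of *Myc* on these arrays. Missing the threshold does not show that *Myc* was unchanged. Of all tested genes, 85% had a log2 change no larger in size than that of *Myc*.

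The arrays set limits on how far these transcripts can have changed in the whole duct. The 95% intervals of limma's fit lay between a mutant over control ratio of 0.870 and 1.13 for the 10 genes at their brightest probes, and between 0.867 and 1.18 over all 16 probes. None of the 16 intervals reached a 1.5-fold change in either direction, and 2 of them left out 0, those of *Myc* (log2 -0.19 to -0.031) and of the second *Hmga2* probe. For the dimmest probes the offset of 50 added to both dyes shrinks ratios, so the limits there are less strict than they look. These were the dimmer *Trim71* probe, the dimmest *Hmga1* probe, the only *Lin28a* probe and the dimmer *Lin28b* probe. The mean log2 intensity in mutant pools was 6.79 for this *Trim71* probe and 6.97 for this *Hmga1* probe. It was 7.8 for *Lin28a* and 7.9 for the dimmer *Lin28b* probe.

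**Figure D3:**
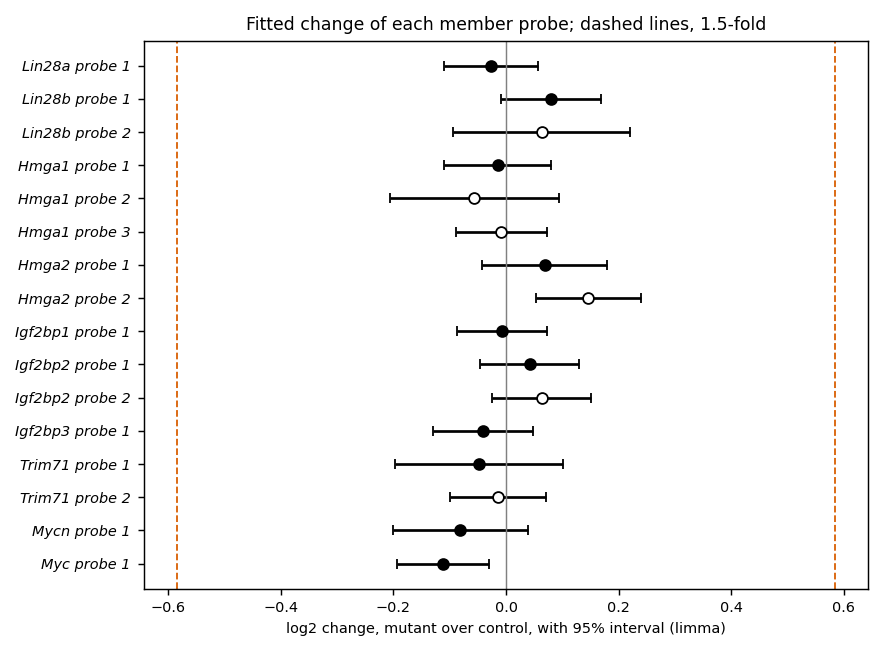
Fitted log2 change of mutant over control (x axis) with its 95% interval from limma for each of the 16 probes (y axis), filled for the brightest probe of a gene. All 16 intervals lie inside the dashed lines at a 1.5-fold change, and only those of Hmga2 probe 2 and Myc leave out 0.

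The change between genotypes was also compared between female and male pools. A term for the difference passed in 0 of 10 genes, beside 0% of all 21042, and at an unadjusted p below 0.05 limma counted 0 of the 10 and 558 of all genes. The largest difference in size, male minus female, was that of *Mycn*, -0.13 on the log2 scale with an SE of 0.10, from means of -0.016 in female and -0.15 in male arrays. With 2 arrays per sex only large differences could have passed.

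Within the 8 pools, with the mean of each dye subtracted, the levels of the 10 genes shared no common course. Pearson's r over the 8 pools was above 0 for 25 of 45 gene pairs and ran from -0.96 (*Lin28a* with *Igf2bp2*) to 0.844 (*Hmga1* with *Trim71*). The pools of 1 array share its hybridisation, so these are descriptions of 4 arrays with 2 pools each. The 3 genes whose levels varied most were *Trim71*, *Mycn* and *Lin28b*, with SDs of 0.116, 0.0967 and 0.0941. Among 2490 genes with an SD of at least 0.15, those closest to *Lin28b* were *Twist1* (r = 0.951), *Bnc1* (0.951) and *Rbp4* (0.939). Closest to *Trim71* were the transcript ENSMUST00000092138 (0.908), *Gm11335* (0.888) and *Ier2* (0.879), and closest to *Mycn* were *Platr25* (0.974), the transcript ENSMUST00000074116 (0.969) and *Gm14410* (0.957). Picked as the highest of 2490 candidates over 8 pools, such r values can arise among unrelated genes.

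The genes around the timing pathway were read from 9 pathway lists, 124 tested genes in all when each is counted once. Of these 0 were higher and 8 lower in the mutant ducts at an adjusted p below 0.05, beside 2.26% and 2.92% of all genes, and 0 of the 8 had a fold change of at least 1.5. At an unadjusted p below 0.05 there were 31 of 124, beside 20.2% of all genes. The count of 8 became 0 without the dye term, 1 in the authors' series table, 4 without array 1, 2 without array 3 and 4 without array 4. The count rose to 10 with median centring. Without array 2 it was again 8, but 4 of the original genes were among them (*Ybx3*, *Ccnd1*, *Thbs1* and *Mapt*), and 3 of the 8 were higher in the mutant, *Igf2*, *Irs2* and *Igdcc3*, named after their values were seen. All 8 of the original genes were lower in the mutant under 14 of 14 alternatives, and of these 14, *Ybx3* passed in 12, *Ccnd1* and *Mapt* in 9, *Thbs1* in 8, *Pcna* and *Ccnb1* in 6, *Mki67* in 5 and *Bub1* in 3. In several of the 14 the direction could not differ. With balanced dyes, leaving out the dye term or fitting the channels separately gave the same estimate, and the other filters kept the same probe. Without array 1 or without array 3, *Ccnd1* did not pass, whereas *Ybx3* passed without any 1 of the 4 arrays. The median log2 change over the 124 genes was -0.019, and over all genes 0.0024.

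Among the 21 genes that process let-7 or act with it, 0 passed the test (median -0.011), and 3 had an unadjusted p below 0.05. They were *Tnrc6a* (0.11, adjusted p = 0.151) and *Tnrc6c* (-0.10, adjusted p = 0.197), which encode scaffold proteins of the silencing complex, and *Drosha* (-0.088, adjusted p = 0.225), the nuclear nuclease that makes precursor microRNAs. Of 8 microRNA host genes looked for, 4 were among the array's symbols and 0 of these passed (1 at an unadjusted p below 0.05). *Mir22hg* had a log2 change of 0.10 (adjusted p = 0.213), *Mir99ahg*, a host of a let-7c copy, of 0.081 (adjusted p = 0.266), and *Mir17hg* of 0.028 (adjusted p = 0.764).

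Of 21 other let-7 targets, 2 were lower and 0 higher (median -0.0026). *Ccnd1*, the D-type cyclin of the G1 phase, had log2 ratios of -0.24, -0.55, -0.27 and -0.26 on arrays 1 to 4 and fell by 0.33 on average (adjusted p = 0.0103). *Thbs1*, a secreted matrix glycoprotein, fell by 0.22 (adjusted p = 0.0291), with ratios below 0 on 4 of 4 arrays.

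No MYC partner or growth target passed. Of 16 partners 0 passed (median 0.027; 2 at an unadjusted p below 0.05), with the lowest p for *Aurka*, a mitotic kinase (-0.14, adjusted p = 0.0864), then *Mnt* (0.10, adjusted p = 0.177) and *Mxd1* (0.072, adjusted p = 0.282), which encode repressors that compete with MYC for MAX. Of 18 growth targets 0 passed (median -0.024; 1 at an unadjusted p below 0.05). The lowest p belonged to *Odc1*, the first enzyme of polyamine synthesis (-0.11, adjusted p = 0.129), *Ldha*, lactate dehydrogenase (-0.10, adjusted p = 0.252), and *Rcl1* (-0.079, adjusted p = 0.265).

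Of 9 tested transcripts that IGF2BP proteins bind, 1 was lower and 0 higher. This was *Mapt*, the gene of the neuronal microtubule protein tau, at -0.22 (adjusted p = 0.0163) and below 0 on 4 of 4 arrays. The neuronal markers given above fell in the same pools, with a list median of -0.39, and their part in this difference was not tested. *Igf2*, chosen after its values were seen as the transcript that named the family, had a log2 ratio of 0.26 ± 0.37 (SD, n = 4; adjusted p = 0.137), above 0 on 3 of 4 arrays. Without array 2, the array below 0, its log2 change was 0.42. Leaving out the 1 array that went the other way is no test of a change in *Igf2*.

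Of 12 further AT-hook and HMG proteins 0 passed (median -0.041; 4 at an unadjusted p below 0.05), with the lowest p for *Hmgb1* (-0.17, adjusted p = 0.102), *Hmgb2* (-0.15, adjusted p = 0.124) and *Hmgn2* (-0.11, adjusted p = 0.163). Of 14 RNA-binding or progenitor genes akin to *Lin28*, 1 was lower. *Ybx3*, a cold-shock domain protein like the LIN28 proteins, had log2 ratios of -0.42, -0.18, -0.36 and -0.24 and fell by 0.30 on average (adjusted p = 0.00314), the lowest adjusted p of the 9 pathway lists.

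The proliferation list held the most calls. Of its 12 genes 4 were lower and 0 higher, and all 12 had a log2 change below 0, with a median of -0.15. The 4 were *Pcna*, the sliding clamp of DNA replication (-0.24, adjusted p = 0.0458), *Ccnb1*, the mitotic cyclin (-0.19, adjusted p = 0.0259), *Mki67*, which encodes the Ki-67 antigen (-0.18, adjusted p = 0.0366), and *Bub1*, a spindle checkpoint kinase (-0.17, adjusted p = 0.0498). *Pcna* was below 0 on 3 of 4 arrays and the other three on 4 of 4. Which genes of this list passed depended on the processing, from 0 to 5 over the alternatives tried, whereas the list's median stayed between -0.12 and -0.18. The count was 2 without array 1, 0 without array 2, 0 without array 3 and 1 without array 4.

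**Figure D4:**
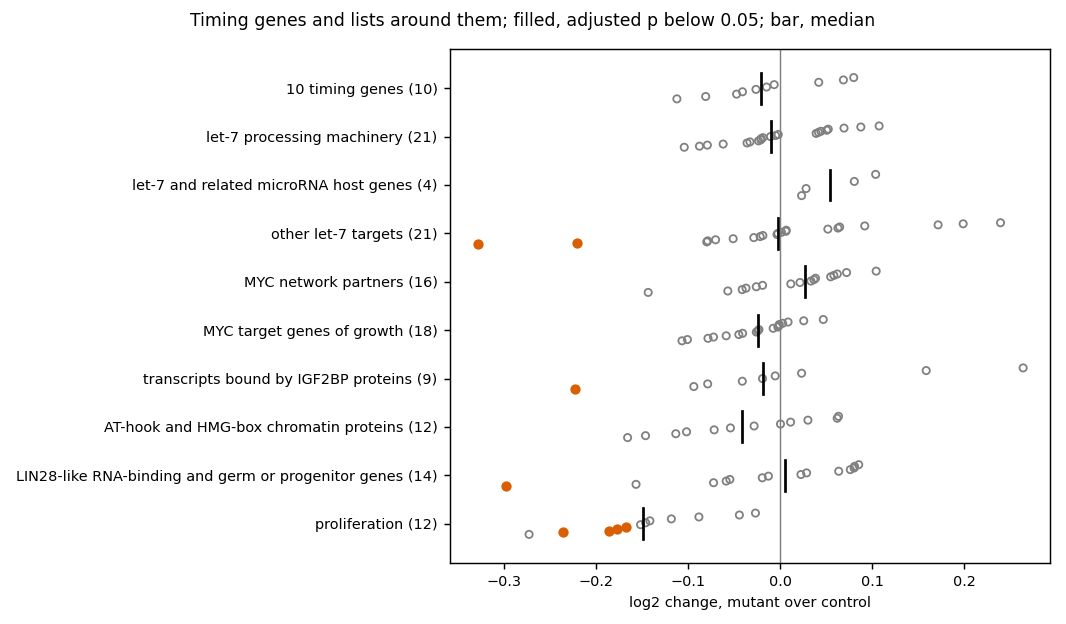
Log2 change of mutant over control (x axis) for the 10 timing genes and each tested gene of the 9 lists around them (y axis, number of genes in parentheses), filled where the adjusted p was below 0.05, with a bar at the list's median. All filled points lie below 0, and the proliferation list is the one with all its genes below 0.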

How the data were processed

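The authors scanned 4 two-colour arrays with Agilent Feature Extraction (10.7.3.1, from the submitters' processing notes) and deposited the intensity of each spot and of its background in both dyes, not normalized, together with Agilent's processed intensity. The authors' series table holds a score per probe, which is a signed fold change (mutant to control) and whose normalization is not given in the sources used here. Its log2 values correlated with the ratios computed here across genes (r from 0.916 to 0.943 per array, column medians of 0). Gene symbols and positions (mm9) are those of the array files.

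With limma (3.58.1, R 4.3.3), background was corrected by normexp (offset 50), log2 ratios by within-array loess, and unflagged spots of a probe, of up to 4, were averaged. Levels of single pools are from separate channels after Aquantile scaling. Tests were run on probes that stood well above background in 4 or more of 8 channel measurements, and the brightest stood for its gene. Ratios were fitted with a genotype and a dye term (lmFit and eBayes, 2 residual degrees of freedom and 5.65 from the prior) and adjusted by Benjamini-Hochberg over all tested genes or probes at a threshold of 0.05. A mutant and a control pool shared each array, so the ratio is paired by design. The scripts were tested on simulated data.

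The 10 genes and the lists were chosen with earlier results of these data known. Named from a list were all genes past the threshold or, with none, the 3 with the lowest p. The pools are independent by the labels, 4 per genotype, which limits the precision. Alternatives covered background, normalization, filter, dye term, channels, the authors' table and leaving out arrays. E18.5 arrays were not analysed here.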

Additional observations from a re-analysis of the deposited data

Results flagged for a closer look

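In 5 of 48 sets of 4 values (the log2 ratios, the mutant levels and the control levels of each of the 16 probes), 1 array stood apart from the other three by Dixon's test at the 95% level, which flags about 1 set in 20 by chance. For *Lin28b* at its brighter probe, array 2 had a log2 ratio of -0.022 against 0.102 to 0.121 on the others, and the control pool of array 1 had a log2 intensity of 12.89 against 12.74 to 12.75. For *Igf2bp2* at its brighter probe, array 1 had a log2 ratio of -0.069 against 0.072 to 0.089, and the mutant pool of array 4 a log2 intensity of 13.51 against 13.64 to 13.66. For *Trim71* at its brighter probe, the mutant pool of array 4 stood at 11.41 against 11.54 to 11.55.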

How the results depend on the processing

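Under all 14 alternatives 0 of the 10 timing genes had an adjusted p below 0.05, and the lowest adjusted p of *Myc* was 0.113 (highest 0.578), with log2 changes from -0.13 to -0.091. For *Hmga2*, log2 changes ran from 0.0062 to 0.13, and for *Mycn* from -0.16 to -0.0052. The direction turned for 3 genes near 0: leaving out 1 array in turn gave -0.062 to 0.032 for *Hmga1*, -0.024 to 0.011 for *Igf2bp1* and -0.15 to 0.051 for *Trim71*, in each case above 0 only without array 1, and *Igf2bp1* had 0.011 in the authors' series value table. The difference between sexes passed in 0 of the 10 under the 3 alternatives run, although median centring called 19 genes among all. Of the 124 genes in the lists, 8 passed, but 2 with Agilent's processed signals, 5 with an offset of 10, 0 without the dye term, 1 in the authors' table, and 2 to 8 without 1 array (4 without array 1, 2 without array 3, 4 without array 4). The 8 without array 2 were 5 lower genes and 3 higher ones (*Igf2* 0.42, *Irs2* 0.41 and *Igdcc3* 0.28), and shared 4 with the original 8. With the channels fitted separately, array as replicate block gave 8 and no replicate block gave 0. Median centring gave 10, and the mean over the tested probes of a gene gave 9. The cause was not tested. Over all genes the count of 1091 became 616 with processed signals, 264 without the dye term, 214 without the replicate block, 414 in the authors' table, 411 without array 1, 445 without array 3 and 695 without array 4. It rose to 1278 without array 2, to 1177 with median centring and to 1139 with the mean over the tested probes of a gene. Of the proliferation list, 4 passed, and 0 did so without array 2 or 3, 2 without array 1 and 1 without array 4. A block for slide or scan was not possible, since all arrays lay on 1 slide in 1 scan.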
